A study of Mus musculus with 198 samples.

Results

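Striatum DNA methylation was measured in 6 mice at 8 weeks of age, 2 heterozygous for a knockout of Dnmt3a (labelled Heterozygous KO, called hKO here) and 4 wild type (WT). The 6 libraries, 1 per animal, are all those labelled striatum among the 198 samples of the series. All 6 animals were C57BL/6J, and each genotype was split evenly between the sexes. The hKO animals were 046-2 (male) and 047-1 (female), and the WT animals were 046-1 and 602-2 (males) and 047-2 and 306-1 (females). Each animal also gave cortex, hippocampus, cerebellum and liver. Per the labels' protocols tissue came from littermates, was frozen and was bisulfite converted. Which animals share a litter, and how the Dnmt3a allele was made, are not given in the sources used here.

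Dnmt3a encodes a DNA methyltransferase that adds methyl groups to unmethylated cytosines. In neurons it writes methylation at CG sites and also at non-CG sites, mainly CA, where it builds up after birth. The striatum is a forebrain region made up largely of GABA-releasing projection neurons, which receive input from cortex and midbrain dopamine neurons.

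Whole-genome bisulfite libraries were sequenced at a labelled coverage of 0.01 to 0.03 genome equivalents. Each library has 1 value per cytosine context, which is the share, in percent, of CA, CT, CC or CG cytosines that were called methylated (mCA, mCT, mCC, mCG), and 1 value for the unmethylated lambda spike-in, where any call is a conversion failure or an error. How many cytosines stand behind a value is not known here, and counting intervals could not be given. The values carry no gene, so the tissue label could not be checked against marker genes. In whole tissue, fewer neurons and less methylation per neuron cannot be told apart.

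The CA cell of WT animal 602-2 holds the same number as its lambda cell, 0.454%, and this was the only one of 190 shallow libraries in which both were equal. It was treated as missing. mCA therefore rests on 2 hKO and 3 WT animals, and mCT, which is complete, serves as a second non-CG measure over all 6.

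mCA, the main non-CG mark, was lower in hKO striatum. It was 1.24% in hKO 046-2 and 1.23% in hKO 047-1, against 2.11% in WT 046-1, 2.12% in WT 047-2 and 2.12% in WT 306-1. The genotypes did not overlap, and the distance from the higher hKO animal to the lowest WT animal was 0.866 percentage points. WT animals spanned 0.0140 points and hKO animals 0.00980 points. The difference of the means was -0.880 points (SE 0.00665). By exact permutation (two-sided) p was 0.1, the smallest value that 10 splits of 5 animals allow (0.167 adjusted over the 5 measures), so the test could not pass 0.05. With the CA cell of 602-2 used as deposited, the difference was -0.464 points (exact permutation p = 0.4).

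mCT, a rarer non-CG mark, was also lower in both hKO animals. The values were 0.545% in 046-2 and 0.536% in 047-1, and in WT striatum 0.809% in 046-1, 0.801% in 047-2, 0.798% in 306-1 and 0.750% in 602-2. The groups did not overlap, and 602-2, the animal without a CA value, lay lowest among the WT animals and still 0.204 points above the higher hKO animal. The hKO mean was 0.541% ± 0.00643 (SD, n = 2). The WT mean was 0.789% ± 0.0270 (SD, n = 4), which makes a difference of -0.249 points (SE 0.0143). By exact permutation (two-sided) p was 0.0667, which is the smallest possible with 15 splits (adjusted 0.167).

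mCG, the context methylated in most cell types, was 69.2% in hKO 046-2 and 69.4% in hKO 047-1. In WT striatum it was 71.6% in 046-1, 71.3% in 047-2, 71.5% in 306-1 and 74.2% in 602-2. Both hKO animals lay below every WT animal, by at least 1.87 points. The hKO mean was 69.3% ± 0.138 (SD, n = 2) and the WT mean 72.2% ± 1.38 (SD, n = 4), and the difference of -2.85 points (SE 0.696) left hKO at 96.0% of the WT level. Exact permutation again gave the smallest possible p, 0.0667 (adjusted 0.167). Without 602-2 the difference was -2.17 points (exact permutation p = 0.1, the smallest possible).

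mCC, the least methylated context, overlapped between the genotypes. It was 0.290% in both hKO animals and 0.327%, 0.322%, 0.310% and 0.276% in WT 046-1, 047-2, 306-1 and 602-2. The hKO mean was 0.290% and the WT mean 0.309%, and the difference of -0.0183 points was within the WT spread (exact permutation p = 0.4, adjusted 0.4). Only 602-2 lay below the hKO animals. Without it the difference was -0.0293 points, with no overlap (exact permutation p = 0.1, the smallest possible).

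The lambda background overlapped as well. Lambda was 0.458% and 0.508% in hKO 046-2 and 047-1, and 0.435%, 0.496%, 0.406% and 0.454% in WT 046-1, 047-2, 306-1 and 602-2. The mean was higher in hKO by 0.0357 points (SE 0.0314, exact permutation p = 0.333, adjusted 0.4), the opposite direction to mCA, mCT and mCG. With lambda subtracted from each library, the mCA difference was -0.918 points and the mCT difference -0.285 points. Lambda exceeded CC in 6 of 6 striatum libraries.

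**Figure D1:**
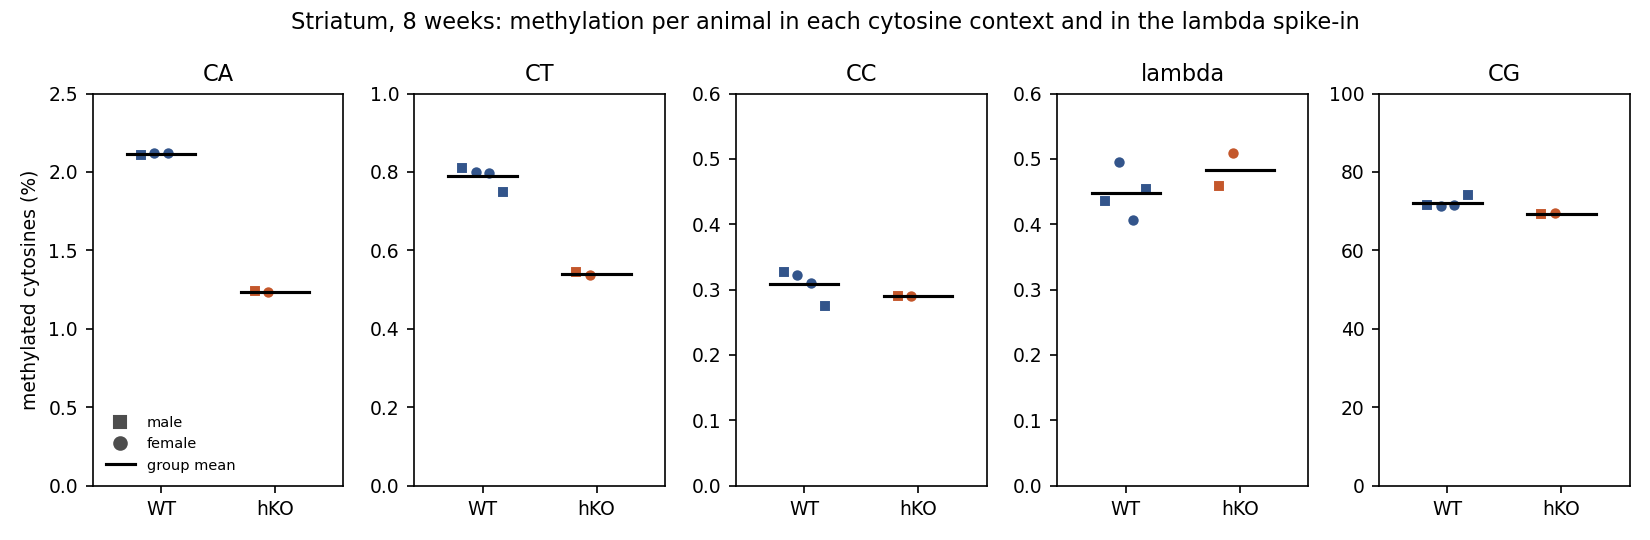
Percentage of methylated cytosines in striatum for CA, CT, CC, lambda and CG, with 1 point per animal (squares male, circles female) and a line at the group mean; each panel has its own linear axis from 0. CA, CT and CG points do not overlap between WT and hKO, whereas CC and lambda points do, and CA has 3 WT points because 1 cell was treated as missing.

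Sex-matched animals with the same title number gave differences of like size. Male 046-2 held 58.9% of the mCA of male 046-1, and female 047-1 held 58.1% of that of female 047-2. For mCT the shares were 67.3% and 66.9%. For mCG they were 96.6% and 97.4%. Each sex has 1 hKO animal, so no difference between the sexes was tested.

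The relative loss in CA and in CT depended on the background. As deposited, hKO striatum held 58.4% of WT mCA but 68.5% of WT mCT. mCC was used as a background measured in the same library, a step chosen with earlier results known. Above CC, mCA was 0.951 points in hKO 046-2 and 0.941 points in hKO 047-1, and 1.78, 1.80 and 1.81 points in WT 046-1, 047-2 and 306-1. mCT above CC was 0.255 and 0.245 points in the hKO animals, and 0.483, 0.479, 0.488 and 0.474 points in WT 046-1, 047-2, 306-1 and 602-2. The WT range was 0.0599 points in mCT as deposited and 0.0136 points above CC, with 602-2 lowest on both scales. In mCA, where 602-2 has no value, the WT range was wider above CC (0.0302 points) than as deposited (0.0140 points).

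On this scale hKO striatum held 52.7% of WT mCA and 52.04% of WT mCT. The differences were -0.850 points for CA (SE 0.0101, exact permutation p = 0.1, adjusted 0.1) and -0.231 points for CT (SE 0.00559, p = 0.0667, adjusted 0.1), each the smallest unadjusted p possible. The ratio of mCT to mCA above CC averaged 0.264 ± 0.00511 (SD, n = 2) over the hKO animals and 0.269 ± 0.00251 (SD, n = 3) over the WT animals. The genotypes overlapped in this ratio, with a difference of -0.00448 (SE 0.00389, exact permutation p = 0.3), a comparison added after the data had been seen. The shares and the ratio hold for CC as the background and were not computed above lambda. Lambda was higher than CC and close to hKO mCT. It was 0.458% beside an mCT of 0.545% in 046-2, and 0.508% beside 0.536% in 047-1.

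**Figure D2:**
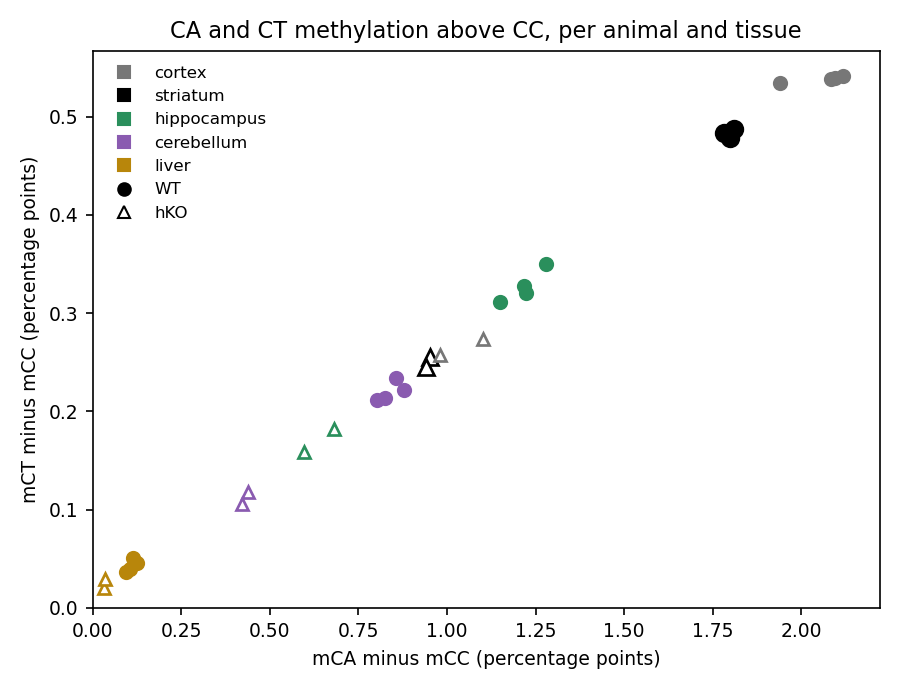
mCT minus mCC against mCA minus mCC, both in percentage points, 1 point per animal and tissue (filled circles WT, open triangles hKO; colours give the tissue; WT striatum 602-2 has no CA value and is not drawn). WT striatum lies at 1.78 to 1.81 points of CA, between WT cortex and WT hippocampus, and hKO striatum at 0.941 to 0.951 points, next to hKO cortex.

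The other tissues of the same animals place the striatum level. Cortex is the mean of 1 to 3 distinct libraries per animal, since 3 of 16 cortex libraries repeated another of their animal, and the other tissues have 1 library each. The 2 highest mCA levels in each animal were those of cortex and striatum: striatum ranked second of 5 tissues in 5 of 5 animals. mCT ranked second in 5 of 6 animals and first in hKO 047-1, where striatum held 0.536% and cortex 0.529%. mCG of striatum ranked first in 1 animal, second in 4 and the third in 1. The ranks were also taken with only the cortex library of lowest lambda in each animal, a choice made after the data had been seen. Except in 602-2, that library was the animal's only distinct cortex library with a usable lambda value. In this setting mCA again ranked second in 5 of 5 and mCT second in 5 of 6 animals. mCG of striatum ranked first in 4 animals and second in 2.

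Striatum mCA was above hippocampus by 0.496 points, above cerebellum by 0.824 points and above liver by 1.42 points, in 5 of 5 animals each. Each exact sign-flip permutation test gave p = 0.0625, the smallest that 5 animals allow (adjusted 0.075 over 12 tests). As a geometric mean over the animals, striatum held 139% of the hippocampal level and 186% of the cerebellar level. Means here and against cortex below pool hKO and WT animals. By genotype, the mCA difference averaged 0.327 (hKO) and 0.609 points (WT) for hippocampus. For cerebellum these means were 0.535 and 1.02 points, and for liver 0.938 and 1.74 points. mCT was above hippocampus by 0.148 points, above cerebellum by 0.256 points and above liver by 0.399 points, in 6 of 6 animals each (exact sign-flip permutation p = 0.03125, adjusted 0.075). mCG was above hippocampus by 1.93 points and above liver by 4.23 points, also in 6 of 6 animals (exact sign-flip permutation p = 0.03125, adjusted 0.075), and differed from cerebellum by 0.368 points (higher in 4 of 6, exact p = 0.25, adjusted 0.25; 0.237 points without hKO 047-1 and 0.244 without WT 602-2). No test passed after adjustment.

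Against cortex, the choice of cortex library changed the size of the difference. Striatum mCA was below the mean of the animal's cortex libraries in 5 of 5 animals, with differences from -0.391 to -0.0205 points and a mean of -0.217 points (exact sign-flip permutation p = 0.0625, adjusted 0.075). The 6 cortex libraries without a usable lambda value had mCC of 0.371% to 0.414%, above the 0.276% to 0.327% of the striatum libraries. With only the cortex library of lowest lambda per animal, cortex mCC was 0.272% to 0.332% and the mCA difference was -0.0814 points (adjusted exact permutation p = 0.0682). The mCT difference went from -0.0818 to -0.0300 points. The mCG difference turned from -0.846 points, with striatum higher in 2 of 6 animals, to 0.929 points, with striatum higher in 6 of 6. It was -0.518 points with the first cortex library of each animal, -1.21 with the last, and, with the mean of the libraries, -0.501 without WT 306-1.

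Repeat cortex libraries also show how far 1 library can stand from another of the same animal. mCA differed by up to 0.403 points between cortex libraries of 1 animal, mCT by up to 0.149 points, mCC by up to 0.125 points and mCG by up to 5.05 points. In 046-1, 046-2 and 306-1 the libraries without a usable lambda value were the higher ones in all 4 contexts, and in 602-2 it was the library with the higher lambda (0.769% against 0.482%). The distance between genotypes in striatum, 0.866 points in mCA and 0.204 points in mCT, was larger than this spread. In mCG the distance, 1.87 points, was smaller. The mCG spread of 5.05 points lay between 046-1 libraries with and without a usable lambda value (70.3% against 75.32%). Libraries without one held 75.31% and 75.32% mCG in 046-1, 71.5% and 72.1% in 046-2, and 74.9% and 76.2% in 306-1. In 602-2, whose cortex libraries all have lambda, mCG was 76.2% and 72.5%. Every striatum library has a lambda value. Striatum itself has no repeat library.

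**Figure D3:**
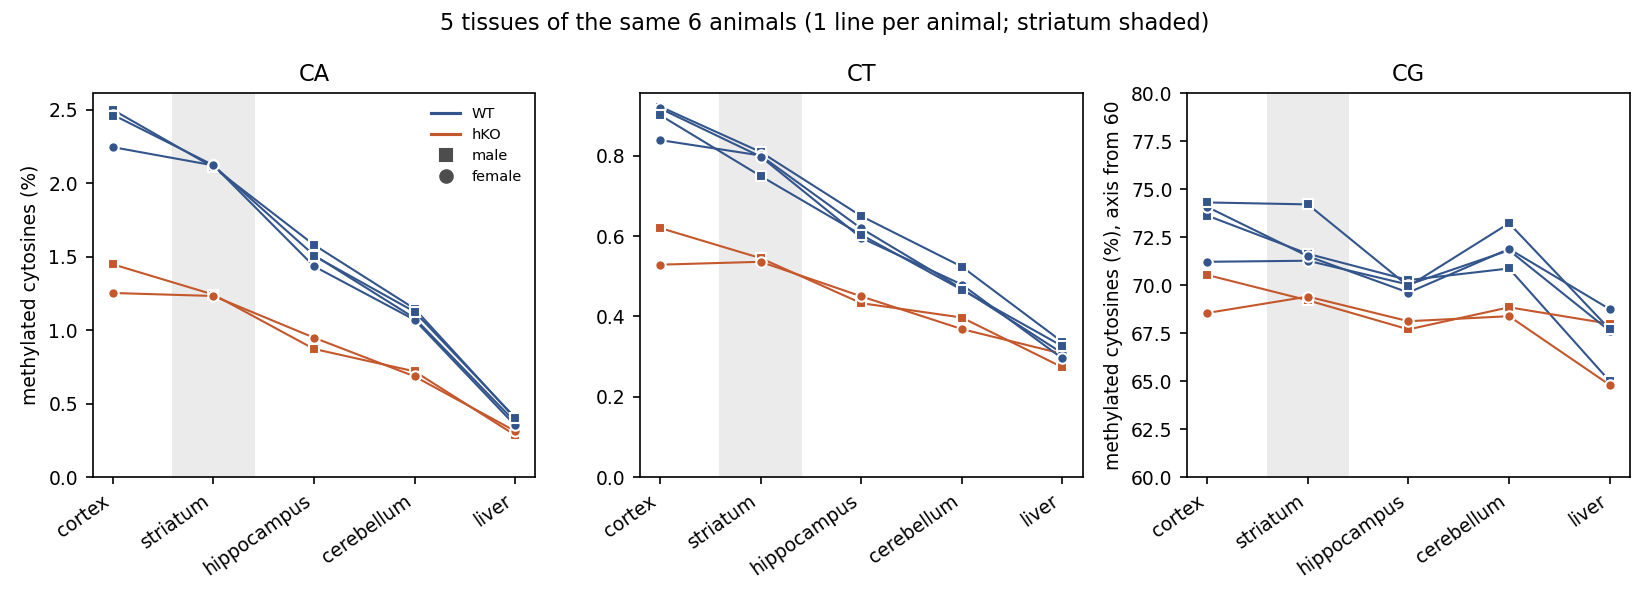
Percentage of methylated cytosines at CA, CT and CG sites (y axes; the CG axis starts at 60) in cortex, striatum, hippocampus, cerebellum and liver, with 1 line per animal (blue WT, orange hKO; squares male, circles female; cortex is the mean of the animal's distinct libraries). In striatum, shaded, the hKO lines lie at 1.23% to 1.24% mCA and the WT lines at 2.11% to 2.12%; WT 602-2 has no CA value there.

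hKO striatum lay between 2 WT tissues in non-CG methylation. Its mCA of 1.23% to 1.24% was above WT cerebellum (1.07% to 1.15%) and below WT hippocampus (1.43% to 1.58%). Its mCT of 0.536% to 0.545% was above the WT cerebellar range of 0.466% to 0.524% and below the WT hippocampal range of 0.596% to 0.650%. These are ranges of values, with no test.

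Whether striatum lost more or less than other tissues was tested by comparing within-animal differences between genotypes. In points, the mCT difference between genotypes in striatum minus that in the other tissue was -0.0734 for hippocampus, -0.147 for cerebellum and -0.223 for liver, so the loss in points was larger in striatum. The within-animal differences of hKO and WT animals did not overlap in these 3 comparisons (exact permutation p = 0.0667 each, the smallest possible, adjusted 0.2 over 12 tests). Against cortex the sign was opposite, at 0.0718 points (SE 0.0476), a smaller loss in striatum, with overlap between the genotypes (exact permutation p = 0.267, adjusted 0.45). This value was 0.0306 without hKO 047-1 and 0.113 without hKO 046-2. By choice of cortex library it was 0.107 with the first, 0.0585 with the last and 0.0356 with that of lowest lambda. In mCA the value was 0.173 points for cortex (exact permutation p = 0.3, 0.0804 without hKO 047-1 and 0.266 without hKO 046-2). With the first cortex library it was 0.223, with the last 0.220 and with that of lowest lambda 0.0891. The mCA value was -0.282 for hippocampus, -0.483 for cerebellum and -0.804 for liver (exact permutation p = 0.1 each, the smallest possible, adjusted 0.2). In mCG the comparisons with the 4 tissues overlapped (exact permutation p from 0.4 to 0.667). As log2 ratios without background subtraction, the mCT value was -0.21 against cerebellum (SE 0.0524) and -0.42 against liver (SE 0.109), with exact permutation p = 0.0667 each (adjusted 0.4). It was -0.06 against hippocampus (SE 0.0475) and 0.10 against cortex (SE 0.111), with exact permutation p = 0.333 each (adjusted 0.622). For mCA the log2 values were -0.129 against cerebellum and -0.449 against liver (exact permutation p = 0.2 and p = 0.1). Against hippocampus and cortex they were -0.0463 and 0.0588 (exact permutation p = 0.6 each).

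With CC subtracted, the difference in log2 ratio between striatum and hippocampus was 0.00485 for mCA and -0.000265 for mCT (adjusted exact permutation p = 0.982 and p = 1). Between striatum and cerebellum it was 0.0164 and 0.0344 (adjusted exact permutation p = 0.960 and p = 0.889). Between striatum and cortex it was 0.0529 and 0.0794 (adjusted exact permutation p = 0.889 and p = 0.6). Between striatum and liver it was 0.720 and -0.105 (adjusted exact permutation p = 0.6 and p = 0.889). Above CC, the hKO level of mCT was 52.04% of WT for striatum, 52.1% for hippocampus, 50.8% for cerebellum and 49.3% for cortex. Liver mCT exceeded CC by a mean of 0.0244 (hKO) and 0.0432 points (WT), so its ratio rests on values near the background. The ratio of mCT to mCA above CC was 0.269 in WT striatum, 0.269 in WT hippocampus, 0.262 in WT cerebellum and 0.262 in WT cortex. No genotype difference between tissues passed a test, and with 2 hKO animals none could.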

How the data were processed

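The authors deposited 1 table of 190 shallow libraries with a fraction of methylated cytosines per context and for lambda. The tools named in the submitters' processing notes are BS-Seeker2 and bedtools, and the genome build is mm9; versions and filters are not given in the sources used here. The main values were not corrected here for incomplete conversion, and whether the deposited fractions were is not known. Incomplete conversion can add to every context and weighs most where methylation is low. Fractions were multiplied by 100. Libraries of an animal equal within 1e-09 were counted once, and a lambda of 0 was treated as missing.

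Differences of means over animals were tested by exact two-sided permutation, and tissues within animals by exact sign flips, with numpy 2.4.6 and pandas 2.3.3 under Python 3.11.15; the tests were checked on simulated data against scipy 1.17.1. Benjamini-Hochberg adjustment covered 5 measures, 2 measures above CC, or 12 tissue tests, with a threshold of 0.05. All 6 libraries and 5 measures are reported; no gene is named with a value because the table holds none. Alternatives were animals left out, permutation within sex, each sex, pairing by title number, medians, log2 ratios, lambda or CC subtracted, and other cortex libraries. The libraries, measures and background steps were chosen with earlier results of these data known. The table of deep cortex libraries was not used here, since it holds no striatum.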

Additional observations from a re-analysis of the deposited data

Results flagged for a closer look

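In WT striatum 1 value stood apart. mCG of animal 602-2 was 74.2%, and its distance to the nearest of the other 3 WT animals took up 0.877 of the group's range, above the limit of 0.829 for 4 samples, which chance exceeds in about 1 group in 20. That rate holds for 1 measure, and mCT, mCC, lambda and mCT above CC were checked too, so any flag is likelier. In mCT the share for 602-2 was 0.808, under the limit. The same library held the lowest mCC and mCT of the WT striata, and it is the library whose CA cell repeats lambda. Among the WT animals 602-2 also had the highest mCG in cortex (74.3%) and cerebellum (73.2%), but not in hippocampus (69.9%) or liver (67.7%).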

How the results depend on the processing

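The 7 comparisons of hKO with WT striatum kept their direction in all 81 alternatives run, and none passed 0.05, which these group sizes do not allow. Where the genotypes did not overlap, leaving out animals, splitting by sex, pairing, medians and log2 ratios could not reverse the direction. Leaving out 1 animal gave mCA differences of -0.885 to -0.875 points, mCT -0.262 to -0.242, mCG -3.14 to -2.17, mCC -0.0293 to -0.0123 and lambda 0.0106 to 0.0607. Lambda fell to 0.0106 points without hKO 047-1 and rose to 0.0607 without hKO 046-2. Permutation within sex gave p = 0.167 for mCA and 0.111 for mCT and mCG (exact, the smallest possible for each). With title numbers 046 and 047 as a replicate block (2 pairs), the differences were -0.877 points in mCA, -0.265 in mCT, -2.15 in mCG and -0.0339 in mCC; the labels do not say that a number marks a litter, and with 2 pairs the pairing itself was not tested. Of 89 alternatives for striatum against other tissues, 1 reversed: mCG against cortex, at 0.929 points with the cortex library of lowest lambda. Of 202 for the genotype difference between tissues, 11 reversed. With CC subtracted these were the log2 ratios of mCA against hippocampus (0.00485), cerebellum (0.0164) and liver (0.720) and of mCT against cerebellum (0.0344). With the replicate block they were mCG against hippocampus (0.0914 points and 0.00278 on the log2 scale). Without hKO 047-1 they were the log2 ratios against cortex of mCA (range over animals left out -0.0399 to 0.158), mCT (-0.00526 to 0.20) and mCG (-0.00446 to 0.0407), mCG against cortex in points (-0.170 to 2.01) and the log2 ratio of mCA against hippocampus (-0.113 to 0.0203). The cause was not tested. The unknown number of cytosines per value and 1 library per striatum limit precision.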

Other observations

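The missing mCA of WT 602-2 can be set beside its other contexts. If its mCT above CC stood to mCA above CC in the mean ratio of the other 3 WT striata, its mCA would be 2.04%. It would be 2.02% at the highest of those ratios and 2.06% at the lowest, below the 2.11% to 2.12% of the other WT animals. This is a computed value, not a measurement, and entered no comparison. The deposited row of 602-2 is written to 9 decimals, fewer than those of the other striatum libraries.

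Lambda lay above CC by 0.168 and 0.218 points in the hKO striata and by 0.0955 to 0.179 points in the WT striata, so lambda overstates the background at CC sites in each of these 6 libraries.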
